A study of Mus musculus with 6 samples.

Results

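The neuronal nicotinic acetylcholine receptor subunits were followed by RNA-Seq in mouse retinal cells that overexpressed Ezh2-Y726D, a catalytically dead form of the histone methyltransferase Ezh2. The subunits were 9 genes listed by symbol, Chrna2, Chrna3, Chrna4, Chrna5, Chrna6, Chrna7, Chrnb2, Chrnb3 and Chrnb4, among the 32371 genes of the deposited count table. All 9 were found by matching Ensembl identifiers to symbols, and all 9 had enough reads to be tested. The study asked how transcripts of retinal ganglion cells (RGCs) differ when this form of Ezh2 is overexpressed around an injury of their axons. Adult C57BL/6J mice received an intravitreal injection of an AAV2 vector, and the optic nerve was crushed (ONC) 2 weeks later. The control group (GFP, 3 libraries) received AAV2-GFP and the other group (Ezh2-Y726D, 3 libraries) received AAV2-Ezh2-Y726D, so that both groups carried a virus and both were injured. At 3 days after ONC, dissociated retinal cells positive for CD90.2 (Thy1) were collected by flow cytometry, and total RNA was sequenced with a stranded kit. Neither an uninjured retina nor an uninfected retina was part of this comparison, and the sources used here do not state how many retinas went into a library.

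Neuronal nicotinic receptors are cation channels built from a ring of subunits around a central pore, and they open when acetylcholine binds between an alpha subunit and its neighbor. Most alpha subunits (Chrna2, Chrna3, Chrna4 and Chrna6) form this site together with a beta subunit, Chrnb2 or Chrnb4, whereas Chrna7 can form receptors by itself, and Chrna5 and Chrnb3 are accessory subunits that join other alpha and beta subunits. In the retina, acetylcholine is released by starburst amacrine cells, RGCs respond to it through nicotinic receptors, and Chrna6 and Chrnb3 are well known in RGCs and their axons.

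A pair of short features of the coding sequence is shown here, of which the first separates the alpha from the beta genes and the second is common to all. A pair of adjacent cysteine codons marks the alpha subunits. It was found in the principal transcript of all 6 alpha genes, downstream of the Cys-loop, and in none of the 3 beta genes. In the next 3 sequences, read from GRCm38 with GENCODE vM21 and printed 5′ to 3′ on the strand of the gene, capitals mark this pair. Chrna6 and Chrna3 are agonist-binding subunits, and Chrna5 carries the pair although it is an accessory subunit.
Chrna6, chr8:27407164-27407199, minus strand, coding exon 5: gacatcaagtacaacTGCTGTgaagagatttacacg
Chrna3, chr9:55015839-55015874, minus strand, coding exon 5: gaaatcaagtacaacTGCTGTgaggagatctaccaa
Chrna5, chr9:55004602-55004637, plus strand, coding exon 5: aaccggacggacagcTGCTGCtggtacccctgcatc

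The Cys-loop, in which a pair of cysteines stands 13 residues apart, gives this receptor superfamily its name, and it was found in all 9 genes. It is shown for the most abundant alpha subunit and for the 3 beta subunits, so that the same element can be compared between them, with the outer cysteine codons in capitals.
Chrna6, chr8:27407332-27407376, minus strand, coding exon 5: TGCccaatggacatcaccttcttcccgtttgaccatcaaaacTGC
Chrnb2, chr3:89761500-89761544, minus strand, coding exon 5: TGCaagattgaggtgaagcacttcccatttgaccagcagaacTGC
Chrnb3, chr8:27393711-27393755, plus strand, coding exon 5: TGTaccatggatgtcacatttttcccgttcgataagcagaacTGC
Chrnb4, chr9:55035491-55035535, minus strand, coding exon 5: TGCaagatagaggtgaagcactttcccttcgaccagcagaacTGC

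No pair among the 36 pairs of subunit genes shared a stretch of 50 exonic bases. For 8 of the 9 genes no exon overlapped an exon of another gene. The exception was Chrnb2, where 1365 of 8380 exonic bases (16.3%) lie opposite Adar, an RNA-editing enzyme gene on the other strand. Whether counting used the strand is not given in the sources used here, so the level of Chrnb2 is uncertain to that extent. Adar itself was at 147 ± 5.20 CPM (SD, n = 3) in GFP and 148 ± 4.13 CPM in Ezh2-Y726D, with a log2 fold change of 0.00.

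The libraries held 9333244 to 23782520 counts. A single rRNA gene, CT010467.1, took 2.55% to 52.2% of them, and its share was largest in GFP replicates 2 and 3, which kept 5745352 and 4460732 other counts. Values per library are therefore given as CPM, reads relative to the library size, with library sizes scaled by edgeR's TMM method. The Ezh2 gene read 22.7, 23.9 and 26.4 CPM under GFP and 65.2, 65.6 and 65.2 CPM under Ezh2-Y726D, in the direction of the labels. Markers of RGCs were present, but so were those of other retinal cells: in GFP, the 12 RGC markers summed to 495 to 508 CPM and the 4 Müller glia markers to 4565 to 4792 CPM, so that the libraries hold RNA of several retinal cell types. In such bulk samples, a change in the number of cells of a type and a change in RNA per cell cannot be told apart.

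Compared per length, as CPM per kilobase of exonic sequence (RPKM), the subunits spanned a wide range of levels over the 6 libraries. Chrna6 was the most abundant, with a mean of 15.8 RPKM and a range of 13.7 to 18.3. Chrnb2 followed at 11.2 RPKM (9.40 to 13.01), below Chrna6 in 6 of 6 libraries. This order rests on the exonic length, since without it Chrnb2 had the higher mean (93.5 CPM against 45.8 CPM for Chrna6). Chrnb3 and Chrna2 came next at 4.83 RPKM (4.05 to 5.66) and 4.82 RPKM (4.25 to 5.34), and these were not separable, since Chrnb3 was above Chrna2 in 3 of 6 libraries.

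The remaining subunits were lower. Chrna7 had a mean of 2.84 RPKM (2.25 to 3.20) and Chrna4 of 2.27 RPKM (2.01 to 2.67), with overlapping ranges, although Chrna7 was above Chrna4 in 6 of 6 libraries. Chrna3 had 1.12 RPKM (0.851 to 1.29) and Chrnb4 had 0.942 RPKM (0.610 to 1.25), again with overlapping ranges and with Chrna3 above in 5 of 6 libraries. Chrna5 was the lowest, with a mean of 0.281 RPKM (0.191 to 0.455). The 2 most abundant subunits were thus an agonist-binding alpha and a beta subunit, and the accessory subunits Chrnb3 and Chrna5 stood far apart from each other.

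**Figure D1:**
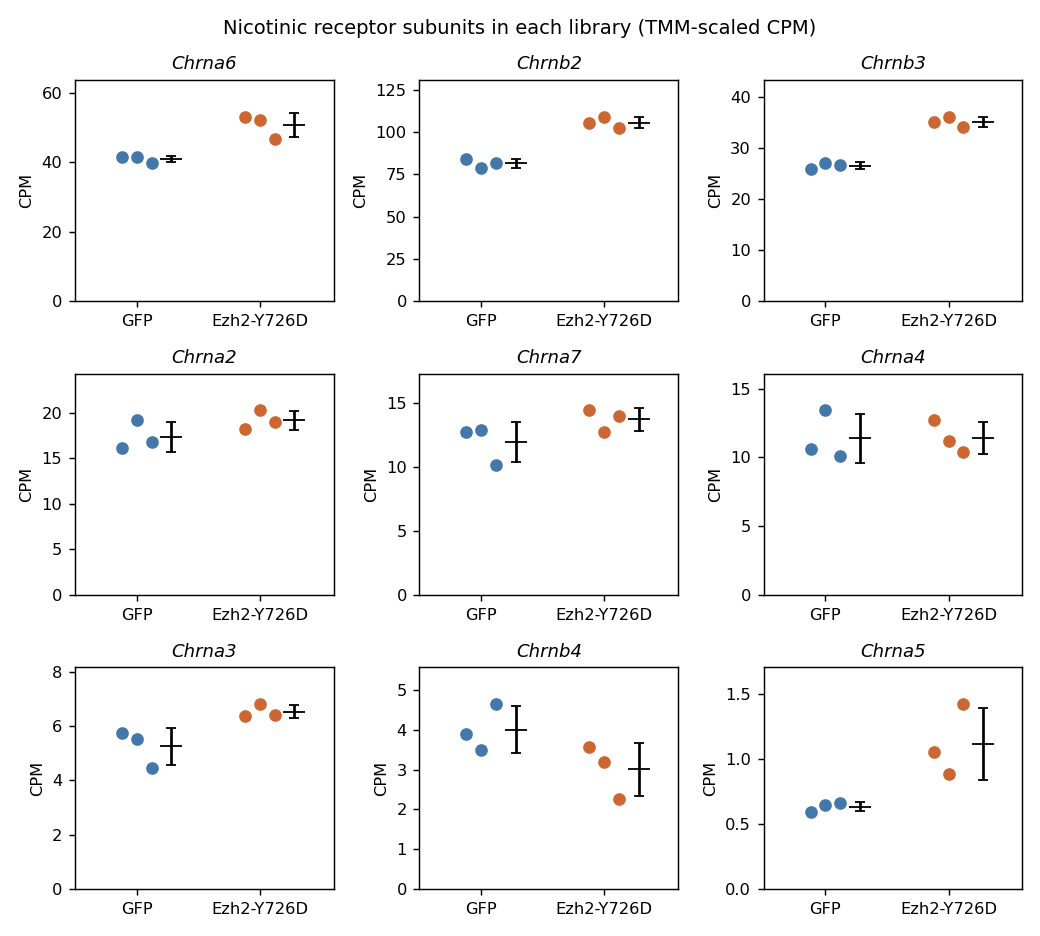
Level of each subunit in CPM of the TMM-scaled library (vertical axes) in the 3 GFP and 3 Ezh2-Y726D libraries. Each point is a library, and the bar and whiskers are the mean and SD of the group. Chrna6, Chrnb2 and Chrnb3 were higher in every Ezh2-Y726D library than in any GFP library, whereas the groups of Chrna4 and Chrnb4 overlap.

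Comparing Ezh2-Y726D with GFP, 4 of the 9 subunits rose, none fell and 5 did not pass the threshold, an adjusted P under 0.05 in the quasi-likelihood test of edgeR, Benjamini-Hochberg adjusted over 18138 genes. Over all genes, 13.9% passed in the higher direction and 13.6% in the lower (27.5% in either). A fold change over 1.5 as well, the study's rule for a differentially expressed gene (DEG), was met by 1 subunit, Chrna5, compared with 8.02% of all genes in either direction, 2.52% higher and 5.5% lower. The median log2 fold change of the 9 subunits was 0.25 (range -0.40 to 0.88), and that of all genes was 0.00 with quartiles of -0.15 and 0.15. The groups did not overlap for 5 subunits, all higher in Ezh2-Y726D, where 19.7% of all genes did the same.

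Among the agonist-binding alpha subunits, Chrna6 (ENSMUSG00000031491, chromosome 8, 27403212 to 27413944) had 41.5, 41.5 and 39.8 CPM in the GFP libraries and 53.1, 52.2 and 46.8 CPM in the Ezh2-Y726D libraries. All 3 Ezh2-Y726D libraries were above all GFP libraries, with the third of them closest to the controls. The mean was 40.9 ± 0.978 CPM (SD, n = 3) in GFP and 50.7 ± 3.44 CPM in Ezh2-Y726D. Chrna6 thus rose 1.23-fold (95% confidence interval 1.13 to 1.34), a log2 fold change of 0.30 (SE 0.0604, adjusted P = 0.000297 in edgeR's quasi-likelihood test, Benjamini-Hochberg adjusted). These values rest on 240 to 1414 reads per library.

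Chrna3 (ENSMUSG00000032303, chromosome 9, 55010111 to 55026562), the alpha subunit best known from autonomic ganglia, had 5.75, 5.55 and 4.48 CPM in GFP and 6.39, 6.81 and 6.41 CPM in Ezh2-Y726D. The groups did not overlap, but the log2 fold change of 0.25 (SE 0.128) did not pass the test (adjusted P = 0.164, edgeR's quasi-likelihood test, Benjamini-Hochberg adjusted). Its 95% interval, -0.01 to 0.51, includes 0. The lowest library held 27 reads of this gene, for which counting error alone is 19.2%.

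Chrna2 (ENSMUSG00000022041, chromosome 14, 66135039 to 66152948), which pairs with the same beta subunits in other neurons, had 16.1, 19.2 and 16.8 CPM in GFP and 18.2, 20.2 and 19.0 CPM in Ezh2-Y726D. GFP replicate 2 lay within the range of the Ezh2-Y726D libraries, so that the groups overlapped. The log2 fold change was 0.17 (SE 0.0811, 95% interval 0.01 to 0.34), and the adjusted P was 0.124 in edgeR's quasi-likelihood test, Benjamini-Hochberg adjusted. Leaving out single libraries moved it from 0.07 (without GFP replicate 1) to 0.23 (without GFP replicate 2), where the adjusted P of the same edgeR test was 0.0499.

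Chrna4 (ENSMUSG00000027577, chromosome 2, 181018380 to 181043546), the partner of Chrnb2 in the most common receptor of the brain, had 10.6, 13.4 and 10.1 CPM in GFP and 12.7, 11.2 and 10.4 CPM in Ezh2-Y726D. The libraries of both groups were interleaved and the means were 11.4 ± 1.77 and 11.4 ± 1.17 CPM (SD, n = 3). Its fold change had an interval of 0.879 to 1.19 and an adjusted P of 0.872 in edgeR's quasi-likelihood test, Benjamini-Hochberg adjusted. Thus a change of Chrna4 in either direction by more than this interval was not seen, whereas a smaller change is not excluded.

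Chrna7 (ENSMUSG00000030525, chromosome 7, 63098692 to 63212569), the subunit that forms receptors by itself, had 12.7, 12.9 and 10.1 CPM in GFP and 14.4, 12.7 and 14.0 CPM in Ezh2-Y726D. GFP replicate 3 was the lowest library, and the other GFP libraries lay close to the lowest of the Ezh2-Y726D group, so that the groups overlapped. The log2 fold change of 0.16 (SE 0.0943, 95% interval -0.03 to 0.36) did not pass the test (adjusted P = 0.226, edgeR's quasi-likelihood test, Benjamini-Hochberg adjusted).

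Both accessory subunits passed the test, Chrna5 narrowly. Chrnb3 (ENSMUSG00000031492, chromosome 8, 27368711 to 27399730), which joins receptors that contain Chrna6, had 25.8, 27.1 and 26.7 CPM in GFP and 35.1, 36.1 and 34.0 CPM in Ezh2-Y726D. The spread within either group was small, and the groups were far apart, at 26.5 ± 0.67 and 35.1 ± 1.02 CPM (SD, n = 3). It rose 1.33-fold (95% confidence interval 1.22 to 1.45), a log2 fold change of 0.41 (SE 0.0622, adjusted P = 5.92e-06 in edgeR's quasi-likelihood test, Benjamini-Hochberg adjusted).

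Chrna5 (ENSMUSG00000035594, chromosome 9, 54980880 to 55007779) had the largest fold change and the fewest reads. It had 0.596, 0.645 and 0.663 CPM in GFP and 1.05, 0.882 and 1.42 CPM in Ezh2-Y726D, which are counts of 17, 5 and 4 against 28, 18 and 42. The groups did not overlap, and the third Ezh2-Y726D library was the highest. The fold change was 1.84 (95% confidence interval 1.15 to 2.96), a log2 fold change of 0.88 (SE 0.334), and its adjusted P of 0.0494 in edgeR's quasi-likelihood test, Benjamini-Hochberg adjusted lay just under the threshold. With another way of scaling, another test or another filter, this value ranged from 0.0385 to 0.295, and the call was lost in all but the scaling to RGC markers. Without Ezh2-Y726D replicate 3 the adjusted P of the same edgeR test was 0.260, and without GFP replicate 1 it was 0.294.

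Of the beta subunits that complete the binding site, Chrnb2 passed the test and Chrnb4 did not, and the difference between them was not tested. Chrnb2 (ENSMUSG00000027950, chromosome 3, 89746195 to 89764632) had 84.1, 78.8 and 81.4 CPM in GFP and 105, 109 and 103 CPM in Ezh2-Y726D. The groups were well separated, with means of 81.4 ± 2.64 and 105.6 ± 3.27 CPM (SD, n = 3). It rose 1.29-fold (95% confidence interval 1.21 to 1.37), a log2 fold change of 0.36 (SE 0.0452, adjusted P = 2.84e-07 in edgeR's quasi-likelihood test, Benjamini-Hochberg adjusted). With 491 to 3026 reads per library, Chrnb2 was the best counted of the subunits.

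Chrnb4 (ENSMUSG00000035200, chromosome 9, 55028154 to 55048779), the beta subunit typical of ganglia, was the only subunit with a negative log2 fold change. It had 3.89, 3.48 and 4.64 CPM in GFP and 3.57, 3.19 and 2.27 CPM in Ezh2-Y726D. The first Ezh2-Y726D library was above GFP replicate 2, so that the groups overlapped, and the third was the lowest of all. The log2 fold change was -0.40 (SE 0.185, 95% interval -0.78 to -0.02), and it did not pass the test (adjusted P = 0.114, edgeR's quasi-likelihood test, Benjamini-Hochberg adjusted). This value depended on single libraries: without Ezh2-Y726D replicate 1 it was -0.56 with an adjusted P of 0.0384 in the same edgeR test, and without Ezh2-Y726D replicate 3 it was -0.21 with an adjusted P of 0.492.

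**Figure D2:**
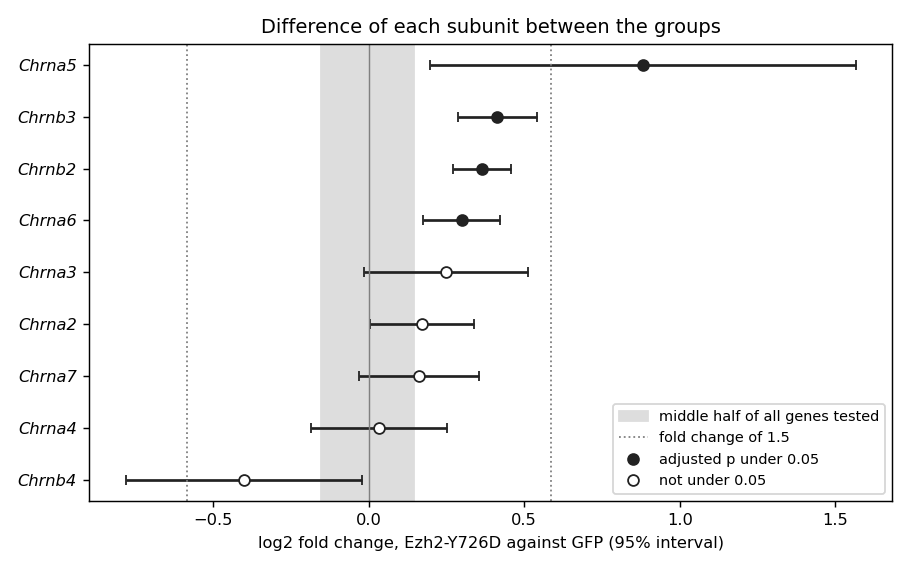
Log2 fold change of each subunit, Ezh2-Y726D against GFP (horizontal axis), with its 95% interval from edgeR's quasi-likelihood fit (whiskers). Chrna6, Chrnb2 and Chrnb3 have narrow intervals above 0 (0.30, 0.36 and 0.41), Chrna5 a wide one (0.20 to 1.57), and Chrnb4 lies at -0.40.

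Chrna6, Chrnb2 and Chrnb3 passed the test when any of the 6 libraries was left out, with log2 fold changes of 0.26 to 0.36, 0.34 to 0.40 and 0.38 to 0.43. With GFP replicates 2 and 3, the libraries richest in rRNA, left out together, GFP replicate 1 was the only control. In this fit, added after seeing the data, the median log2 fold change of the 9 subunits was 0.25. With 1 control the spread between controls cannot be measured, so the test of this fit is not used here. Scaled by library totals, none of Chrna6, Chrnb2 and Chrnb3 passed, and the all-gene median moved to 0.49.

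Some subunits are neighbors in the genome, so that their values can be read side by side. Chrnb3 and Chrna6, both of which rose, are 3481 bp apart on chromosome 8 on opposite strands. On chromosome 9, Chrna5 and Chrna3 are 2331 bp apart and Chrna3 and Chrnb4 are 1591 bp apart, and here the log2 fold changes were 0.88, 0.25 and -0.40 in the order of the genes. Chrna5 passed the test, and the other members of this cluster did not.

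The proportions between subunits do not depend on how libraries were scaled. The summed level of the 9 subunits was 39.9, 40.8 and 38.6 RPKM in GFP and 49.4, 49.5 and 46.2 RPKM in Ezh2-Y726D. Of this sum, Chrna6 took 35.4% ± 0.358 (SD, n = 3) in GFP and 36.1% ± 1.11 in Ezh2-Y726D. Chrnb2 took 24.5% ± 1.21 and 26.1% ± 0.593, and Chrnb3 10.5% ± 0.357 and 11.4% ± 0.217. Both of these beta subunits had a higher share in every Ezh2-Y726D library than in any GFP library.

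The smaller shares differed in both directions. Chrnb4 took 2.72% ± 0.475 (SD, n = 3) in GFP and 1.66% ± 0.316 in Ezh2-Y726D, and Chrna4 took 5.69% ± 0.747 and 4.71% ± 0.358, in both cases without overlap. Chrna5 took 0.511% ± 0.036 and 0.746% ± 0.215, also without overlap. In an exact permutation test, 2-sided, these 5 shares reached P = 0.1, the smallest value that 3 libraries against 3 allow, and 0.18 after adjustment over 9 shares. The shares of Chrna2 (11.5% and 10.5%), Chrna7 (6.64% and 6.30%) and Chrna3 (2.51% and 2.57%) overlapped between the groups, as did that of Chrna6. The difference of Chrnb2 was 1.602 percentage points, and without GFP replicate 2 it was 0.904, when that of Chrnb4 (-1.05 with all libraries) was -1.26 and that of Chrna4 (-0.984 with all libraries) was -0.553. The difference of Chrna5 was 0.235, and 0.115 without Ezh2-Y726D replicate 3.

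**Figure D3:**
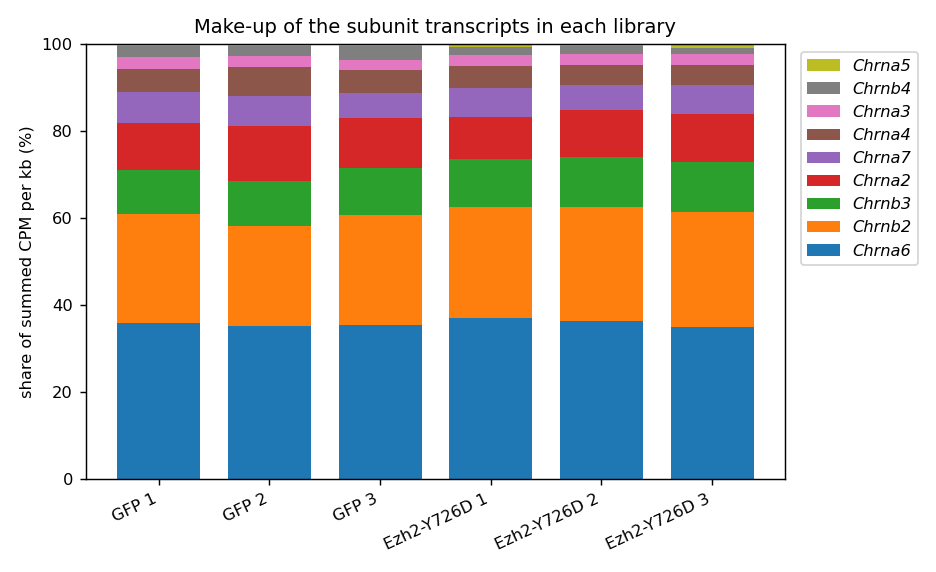
Share of each subunit in the summed per-length level of the 9 subunits (vertical axis, percent) in the 3 GFP and 3 Ezh2-Y726D libraries. Chrna6 and Chrnb2 together hold most of the sum in every library, and the share of Chrnb4 is 2.72% in GFP and 1.66% in Ezh2-Y726D.

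Per-length ratios between subunits that are known to assemble together, or that are neighbors, were computed for 7 pairs chosen after the counts had been seen. The ratio of Chrna6 to Chrnb2 was 1.45 ± 0.0603 (SD, n = 3) in GFP and 1.38 ± 0.0717 in Ezh2-Y726D, and that of Chrnb3 to Chrnb2 was 0.429 ± 0.0245 and 0.437 ± 0.00194. Both overlapped between groups. The ratio of Chrna6 to Chrnb3 was 3.38 ± 0.13 and 3.17 ± 0.155, and that of Chrna3 to Chrna5 was 4.95 ± 0.871 and 3.62 ± 0.957, also with overlap.

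In contrast, 3 ratios did not overlap. Chrna4 to Chrnb2 was 0.234 ± 0.0433 (SD, n = 3) in GFP and 0.181 ± 0.0181 in Ezh2-Y726D. Chrna6 to Chrna4 was 6.30 ± 0.82 and 7.68 ± 0.411, and Chrna3 to Chrnb4 was 0.951 ± 0.237 and 1.59 ± 0.371. Each had P = 0.1 in an exact permutation test, the smallest that can be reached, and 0.233 after adjustment over the 7 ratios. The ratios among Chrna6, Chrnb2 and Chrnb3 thus overlapped between the groups, whereas those with Chrna4 did not. The Chrna4 ratios rest largely on GFP replicate 2, since Chrna4 to Chrnb2 was 0.211, 0.284 and 0.207 in the GFP libraries and 0.202, 0.172 and 0.169 in the Ezh2-Y726D libraries.

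For the 3 subunits with the highest mean CPM, the gene with the most similar pattern over the 6 libraries was sought among 16045 genes. It was Pcbp3 for Chrnb2 (Pearson's r = 0.999), Cemip for Chrna6 (0.998) and Tmem130 for Chrnb3 (1.000). With 6 points that fall in 2 groups and share their libraries' scaling, these values are a description of the levels.

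The promoters are described as a feature that the choice of the genes did not use. RefSeq promoter sequence (GRCm38, the 250 bases before the start) was found for 6 of the 9 subunits, with 2 starts for Chrna5. By the gene coordinates of GENCODE vM21, the windows of Chrna4 and of the second Chrna5 start lie inside the gene. The window of Chrnb4 lies mostly inside its gene and that of Chrna7 partly, so these are upstream of the RefSeq start only. Counted as CG dinucleotides, Chrna7 held 25 and Chrna4 held 24, and 10.7% and 11.98% of the 32851 promoters of the same length held as many or more. Neither of these genes passed the test. Chrna3 held 13, Chrnb2 held 10, Chrnb4 held 8, and the starts of Chrna5 held 3 and 17, whereas the median promoter held 6.

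The GC box GGGCGG, searched on both strands, was found 3 times in Chrna4, 4 times at the second Chrna5 start, once each in Chrna3 and Chrna7, and not in Chrnb2, Chrnb4 or at the first Chrna5 start. It occurs in 32.7% of all promoters of this length. The promoters of Chrnb2, the best counted subunit that rose, and of Chrnb4, which did not pass, are shown as examples of the CG counts, with each CG in capitals.
Chrnb2, chr3:89764633-89764882, minus strand: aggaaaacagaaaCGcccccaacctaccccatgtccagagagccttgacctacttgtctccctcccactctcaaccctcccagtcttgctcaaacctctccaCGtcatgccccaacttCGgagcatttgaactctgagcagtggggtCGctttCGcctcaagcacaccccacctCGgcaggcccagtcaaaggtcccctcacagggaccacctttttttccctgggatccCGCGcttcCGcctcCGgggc
Chrnb4, chr9:55048545-55048794, minus strand: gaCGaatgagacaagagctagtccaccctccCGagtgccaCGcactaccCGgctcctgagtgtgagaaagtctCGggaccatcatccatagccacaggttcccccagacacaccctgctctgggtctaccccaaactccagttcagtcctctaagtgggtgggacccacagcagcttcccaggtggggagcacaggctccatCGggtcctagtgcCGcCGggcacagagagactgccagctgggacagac

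Other genes of cholinergic signaling were taken from 4 lists, which were chosen with earlier results of these data known. Of 8 proteins that help nicotinic receptors to assemble or that bind and modulate them, 4 rose, 1 fell and 3 did not pass. Ly6h, a membrane-anchored protein that limits nicotinic receptor delivery to the surface, had 17.4 ± 0.428 CPM (SD, n = 3) in GFP and 31.0 ± 0.61 CPM in Ezh2-Y726D, a log2 fold change of 0.82 (SE 0.0676, adjusted P = 1.63e-10 in edgeR's quasi-likelihood test, Benjamini-Hochberg adjusted). Lypd1, of the same family, rose by 0.79 on the log2 scale (4.74 to 8.69 CPM), and 17.1% of its exonic bases overlap Gpr39. Lynx1, which dampens nicotinic responses, rose by 0.23 (130 to 151 CPM), and Tmem35a, the chaperone NACHO, rose by 0.29 (22.1 to 26.0 CPM). Without GFP replicate 1 the value of Tmem35a was 0.16 and its call was lost (adjusted P = 0.249, edgeR's quasi-likelihood test, Benjamini-Hochberg adjusted).

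In the other direction, Ly6e, a further member of the Ly6 family, had 211 ± 5.6 CPM (SD, n = 3) in GFP and 127 ± 4.35 CPM in Ezh2-Y726D, a log2 fold change of -0.73 (SE 0.0401, adjusted P = 6.24e-14 in edgeR's quasi-likelihood test, Benjamini-Hochberg adjusted). Ric3, another chaperone, Lypd6 and Lypd6b did not pass. Thus the 2 largest rises and the fall in this list met the fold change of a DEG, and the median log2 fold change of the 8 was 0.17.

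The genes of acetylcholine supply had few reads. Chat, which makes acetylcholine, had 10, 3 and 0 reads in GFP and 19, 11 and 12 in Ezh2-Y726D, and Slc18a3, its vesicular transporter, had 6, 1 and 0 against 13, 8 and 14, and neither could be tested. Slc5a7, the choline transporter, did not pass. Of the enzymes that split acetylcholine, Ache rose by 0.45 on the log2 scale (39.0 to 54.6 CPM, SE 0.0583, adjusted P = 4.69e-07 in edgeR's quasi-likelihood test, Benjamini-Hochberg adjusted). Bche fell by 0.29 (10.2 to 8.67 CPM, adjusted P = 0.0387 in the same edgeR test), a call that was lost in 8 of 15 alternatives, and with library totals its value was 0.22.

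Of the muscarinic receptors, Chrm2 rose by 0.71 on the log2 scale (15.9 to 26.7 CPM, SE 0.0759, adjusted P = 2.01e-08 in edgeR's quasi-likelihood test, Benjamini-Hochberg adjusted), Chrm1 and Chrm3 did not pass, and Chrm4 and Chrm5 had too few reads to test. Of the 7 subunits of muscle and hair cell nicotinic receptors, only Chrnb1 was tested and it did not pass. The other 6, Chrna1, Chrna9, Chrna10, Chrnd, Chrne and Chrng, had at most 5 reads in any library.

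**Figure D4:**
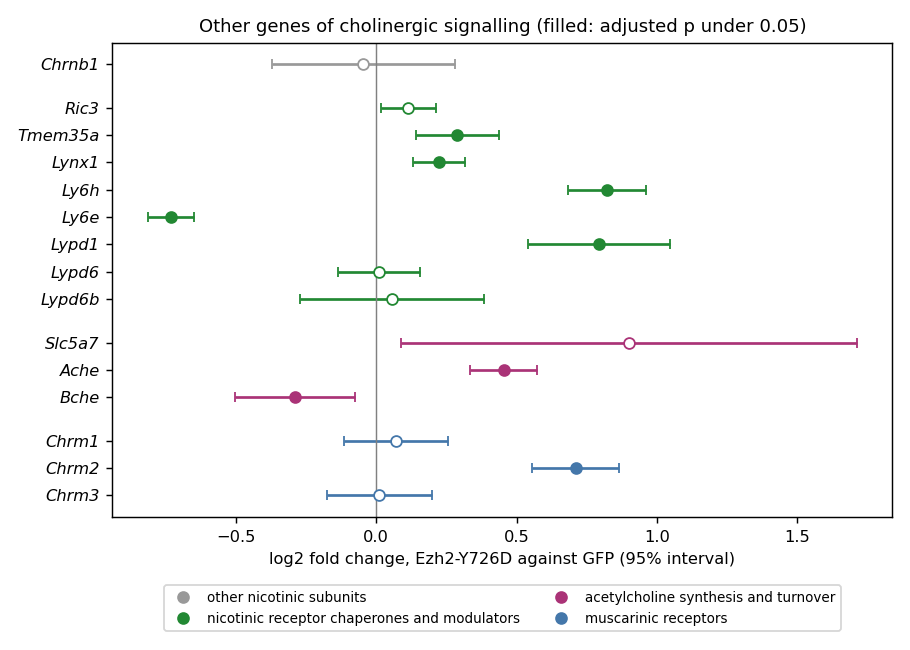
Log2 fold change, Ezh2-Y726D against GFP, of the tested genes of the 4 cholinergic lists, with 95% intervals from edgeR's quasi-likelihood fit (whiskers). Ly6h (0.82), Lypd1 (0.79) and Chrm2 (0.71) lie highest among the genes that passed the test, and Ly6e (-0.73) lies lowest.

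Markers of retinal cell types moved between the groups as well, and they are given here beside the subunits. The 12 RGC markers summed to 495 to 508 CPM in GFP and 470 to 508 CPM in Ezh2-Y726D. Of these, 2 were higher (Thy1 by 0.13 and Pou4f1 by 0.41 on the log2 scale), 1 was lower (Isl1, -0.58) and 9 did not pass, and the median log2 fold change was -0.08. All 7 amacrine cell markers were higher, with a median log2 fold change of 0.61 and sums of 1201 to 1340 CPM in GFP and 1919 to 1993 CPM in Ezh2-Y726D. Of the 5 starburst amacrine cell markers, which summed to 75.7 to 87.7 CPM in GFP and 74.3 to 79.3 CPM in Ezh2-Y726D, Megf10 made up nearly the whole sum (means of 79.2 and 73.9 CPM). Chat (0.246 and 0.553 CPM), Slc18a3 (0.113 and 0.452 CPM) and Slc5a7 (0.519 and 1.03 CPM) had higher means in Ezh2-Y726D, without overlap for Chat and Slc18a3, and Fezf1 had 0.165 and 0.156 CPM, from 1 to 5 reads per library. Neither of the 2 that could be tested, Megf10 and Slc5a7, passed.

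Other cell types differed too. All 5 cone markers were lower (344 to 360 CPM in GFP, 228 to 238 CPM in Ezh2-Y726D), as were 5 of 6 bipolar cell markers, 4 of 6 microglia markers, 4 of 4 T cell markers, 1 of 4 Müller glia markers and 1 of 3 endothelial markers, while 1 bipolar cell marker and 1 microglia marker were higher. Among rod genes, Gnat1 was higher (946 to 1025 CPM, 0.12 on the log2 scale), and Nrl, Nr2e3, Pde6b and Sag did not pass. No marker was at 0 in all libraries. Scaled to the summed RGC markers in place of TMM, the same number of subunits, 4, was called higher and the median log2 fold change was 0.30. The part of amacrine and other cells in the levels of Chrna6, Chrnb2, Chrnb3 and Chrna5 was not tested.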

How the data were processed

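RNA-Seq was analysed for 3 GFP and 3 Ezh2-Y726D libraries, grouped by their labels. The authors deposited raw, unnormalized read counts for each gene. The submitters' processing notes name STAR 2.7.0d and GRCm38, and the counting tool, annotation and strand setting are not given in the sources used here. Symbols were found for 32325 of 32371 identifiers, and coordinates and exonic lengths are those of GENCODE vM21. Counts were scaled with TMM and tested with edgeR 4.0.16 (R 4.3.3, quasi-likelihood test) after filterByExpr (10 counts, total of 15), with Benjamini-Hochberg adjustment over 18138 genes and group as the only term. The common biological coefficient of variation was 0.0442. SE was taken as the ratio of a log2 fold change to the root of its F statistic. Totals of 9333244 to 23782520 counts set the precision, and counting error of the lowest library ran from 4.51% (Chrnb2) to 50% (Chrna5). Every pair of libraries differed by more than counting noise. The labels do not say whether libraries came from separate mice, so P values measure the spread between libraries, which may be technical.

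All 9 subunits, every called gene of the cholinergic lists, and the most similar gene for the 3 subunits of highest CPM were named by rule, with a pseudocount of 0.5 CPM and a mean of at least 1 CPM for similarity. The subunits and lists were chosen with earlier results of these data known. Alternatives were RLE factors, library totals with and without the rRNA gene, RGC marker scaling, DESeq2 1.42.0, other filters, a replicate block and leaving out libraries. The procedure was tested on simulated data. Some further items are not reported here.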

Additional observations from a re-analysis of the deposited data

How the results depend on the processing

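Chrna6, Chrnb2 and Chrnb3 were called higher in every alternative but library totals. This leaves aside the fit with GFP replicate 1 as the lone control, in which that library is assumed to vary like the others. With library totals, in which the rRNA gene takes up to 52.2% of a library, the number of subunits called higher was 0 in place of 4, their median log2 fold change was 0.75 and that of all genes 0.49, Chrnb4 was at 0.0753 and Bche at 0.22, and no gene of the chaperone, acetylcholine or muscarinic lists was called in either direction (0 each). The number of DEGs among the subunits, 1 by the main test, was 0 with RLE factors, library totals with or without the rRNA gene, DESeq2, no filter, a minimum of 10 counts per library (where Chrna5 was not tested) and the replicate block. Leaving out 1 library at a time gave 0 to 1 DEGs, 3 to 4 subunits called higher, 0 to 1 called lower, and medians of 0.19 to 0.31. Without GFP replicate 2, the subunit called higher beside Chrna6, Chrnb2 and Chrnb3 was Chrna2 and not Chrna5. Leaving out 1 library also gave log2 fold changes of Chrna4 from -0.0645 (without GFP replicate 1) to 0.122 (without GFP replicate 2), and -0.0521 without Ezh2-Y726D replicate 1, against 0.03. In the acetylcholine list, whose alternatives were added after seeing the data, 1 to 2 genes were called higher and 0 to 1 lower when a library was left out, and 0 were called lower with RGC marker scaling, DESeq2, no filter and the replicate block. Same-numbered libraries correlated at 0.106, 0.0416 and 0.0306, so the numbers were not taken to pair them, although each library correlated best with its own number, a hint from the data and not the design. With the replicate block, 3 subunits were called higher and Chrna5 had a log2 fold change of 0.80 (adjusted P = 0.0989 in edgeR's quasi-likelihood test). The cause of these shifts was not tested. Depth limits Chrna5 most, with 4 reads in its lowest library.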
